A study of Sus scrofa with 60 samples.

Results

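The genes described here make up the core of the transforming growth factor beta (TGF-β) system: the 3 ligands TGFB1, TGFB2, and TGFB3, the latency protein LTBP1, the integrin subunits ITGB6 and ITGB8, the receptors TGFBR1 and TGFBR2, and the inhibitory SMAD7. Their rows were found by gene name and are 9 of 30335 named genes in the liver RNA-Seq counts of 60 pigs. Of the 9 genes, 8 passed the filter on low counts and were tested among 16210 genes. ITGB6 did not pass it. Pigs of both sexes were delivered by cesarean section shortly before term, underwent sham surgery or bile duct ligation (BDL) on day 1, and had liver collected on day 14. The cystic and common bile ducts were tied in BDL, a model of obstructive cholestasis, while sham pigs had the abdomen opened and closed without ligation. ENT pigs were fed a milk replacer formula through an orogastric tube. SLE pigs received parenteral nutrition (PN) with the soybean lipid emulsion Intralipid, and MLE pigs received PN with the multicomponent emulsion SMOFlipid. The groups were ENT-sham (n = 12), ENT-BDL (n = 10), SLE-sham (n = 10), SLE-BDL (n = 11), MLE-sham (n = 9), and MLE-BDL (n = 8). All pigs carried a jugular catheter and began on PN, and the ENT pigs were then weaned onto formula, so no group was free of PN or of surgery.

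TGF-β is secreted as a latent complex in which the mature ligand stays bound to its own propeptide, and latent TGF-β-binding proteins such as LTBP1 tether this complex to the matrix. Integrins that contain the β6 or β8 subunit bind the propeptide and release or expose the ligand. The active ligand joins the type II receptor TGFBR2 with the type I receptor TGFBR1, which phosphorylates SMAD2 and SMAD3, and SMAD7 is induced by the signal and feeds back on the receptor. In the liver the pathway is best known for activation of stellate cells and deposition of matrix during cholestatic and other chronic injury.

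Between 14469788 and 21374161 reads were counted per library (median 17254606). One pair of libraries stood apart and touches every ENT result. The counts of replicate 2 of ENT-sham and replicate 1 of ENT-BDL were nearly the same. A chi-square of the pair came to 1.91 per degree of freedom, while the next closest of the 1770 pairs of libraries reached 16.1 (median 87.1). Their labels name different surgeries. Whether either label is wrong, or whether both libraries come from 1 animal, which would make 1 of the group sizes smaller, was not tested, so the ENT calls were also made without these libraries. ENT-sham replicate 2 was the highest ENT-sham pig for 6 of the 9 genes and ENT-BDL replicate 1 the highest ENT-BDL pig for 5. The liver label was checked with 9 hepatocyte genes, which summed to between 48200 and 124000 CPM in every pig, where CPM are counts scaled to a common library size. Their mean was 106000 CPM in ENT-sham and 68300 in ENT-BDL, 83400 and 74600 on SLE, and 94100 and 57100 on MLE. ENT-sham replicate 2 had the lowest hepatocyte sum of its group, 50100 CPM against a group median of 110000. The lowest ENT-BDL pig was at 50100 CPM. The 12 cholangiocyte markers had means of 222 and 441 CPM on ENT, 365 and 461 on SLE, and 270 and 467 on MLE, and none of either list was at 0 in all pigs of a group. Of the 12 stellate cell and fibroblast markers, 1 was higher and 1 lower after BDL on ENT, where 8.89% of all tested genes were called higher and 8.53% lower. The counts were 2 and 0 on SLE (2.97% and 1.57%) and 1 and 2 on MLE (7.85% and 6.58%). The summed macrophage markers had means of 1800 CPM in ENT-sham and 1370 in ENT-BDL, 1450 and 1350 on SLE, and 1590 and 1160 on MLE. Endothelial markers had means of 1370 and 1160 on ENT, 1150 and 1070 on SLE, and 1300 and 1050 on MLE, and erythroid markers 1200 and 1330, 458 and 627, and 560 and 266. Lymphocyte markers had means of 34.9 and 35.5 on ENT, 38.3 and 27.6 on SLE, and 37 and 31.5 on MLE. For platelet markers they were 15.3 and 15.1, 14.4 and 14.4, and 15.2 and 14.4. The part of these shifts in the results was not tested, and in whole liver more cells of a type and more RNA per cell cannot be told apart.

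The genes differed widely in level. Mean CPM per kilobase of gene model over the 60 pigs was 35.6 for TGFBR2, 13.7 for TGFB1, 11.6 for LTBP1, 3.91 for TGFBR1, 3.06 for SMAD7, 2.69 for TGFB3, 0.541 for ITGB8, 0.39 for TGFB2, and 0.0293 for ITGB6. TGFBR2 thus lay above 91.1% of the tested genes per kilobase and TGFB2 above 15.6%. The ranges over pigs overlapped between all neighbors in this order, widely for TGFB1 and LTBP1 (7.13 to 21.6 and 6.13 to 20.5), except between TGFB2 and ITGB6 (0.184 to 0.678 and 0 to 0.151). Each library held 1049 to 4367 counts of TGFBR2 but 19 to 499 of ITGB8 and 22 to 130 of TGFB2, so the low genes were measured less precisely.

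**Figure D1:**
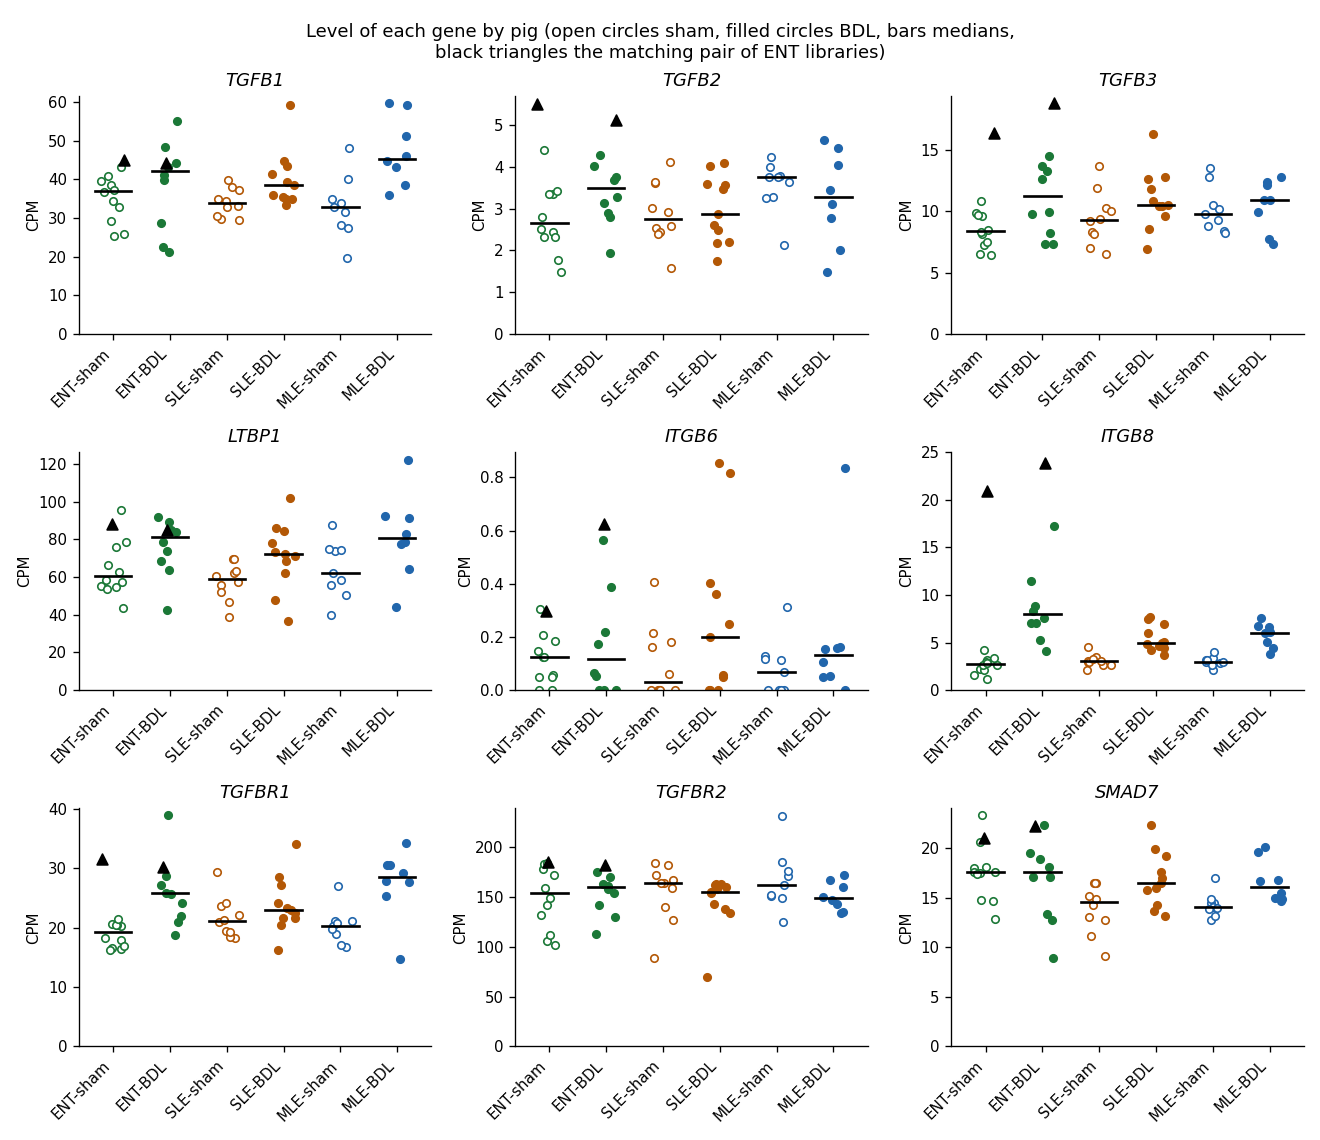
CPM of the 9 genes (y axes, each from 0) in the 60 pigs of 6 groups (x axes), with open circles for sham, filled circles for BDL, bars for group medians, and black triangles for the matching pair of ENT libraries. ITGB8 in BDL pigs lies mostly above the sham pigs of the same diet, apart from the ENT-sham triangle at 20.9 CPM, while TGFBR2 overlaps in all groups.

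TGFB1 encodes the ligand most often tied to liver fibrosis (gene ID 397078, Sscrofa11.1 chromosome 6, 49332169 to 49348642, minus strand). It rose after BDL in MLE pigs. CPM in MLE-sham ran from 19.7 to 48.2 (median 32.7) and in MLE-BDL from 35.9 to 59.6 (median 45.4). All 8 MLE-BDL pigs lay above the MLE-sham median and 3 lay above every MLE-sham pig, so the groups overlapped in part. The log2 fold change was 0.52 ± 0.14 (SE), below 2-fold, with an adjusted p = 0.00812 in the edgeR fit over all 60 pigs. In ENT pigs, TGFB1 ran from 25.3 to 45.1 CPM (median 36.8) in sham and from 21.1 to 55.1 (median 42) in BDL, with full overlap. That log2 fold change was 0.12 (95% interval -0.13 to 0.37, adjusted p = 0.564). SLE-sham pigs lay between 29.5 and 39.9 CPM (median 33.8) and SLE-BDL pigs between 33.3 and 59.3 (median 38.5). Although 10 of 11 SLE-BDL pigs exceeded the SLE-sham median, the log2 fold change of 0.24 (-0.02 to 0.50) did not pass the test (adjusted p = 0.327). The response on MLE minus that on ENT was 0.40 on the log2 scale (0.02 to 0.78, adjusted p = 0.533), and minus that on SLE it was 0.28 (-0.10 to 0.67, adjusted p = 0.682). Neither difference between responses passed the test. Among BDL pigs, the log2 difference of MLE from ENT was 0.28 (0.00 to 0.56, adjusted p = 0.161) and of MLE from SLE 0.24 (-0.04 to 0.51, adjusted p = 0.469), so a higher TGFB1 in MLE-BDL than in the other BDL groups was not established.

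TGFB2 and TGFB3, which use the same receptors, did not pass the test on any diet. TGFB2 (gene ID 397084, chromosome 10, 8306136 to 8435307, plus strand) had group medians of 2.66 to 3.75 CPM, and its log2 fold changes after BDL were 0.23 (-0.13 to 0.60) on ENT, 0.04 (-0.33 to 0.42) on SLE, and -0.12 (-0.53 to 0.30) on MLE. TGFB3 (gene ID 397400, chromosome 7, 99133873 to 99162239, minus strand) ran from 6.44 to 16.4 CPM in ENT-sham (median 8.39) and from 7.36 to 18.8 in ENT-BDL (median 11.3). Its highest pig in each of these groups was the library of the matching pair. The log2 fold change was 0.35 ± 0.15 (adjusted p = 0.0973), and without ENT-sham replicate 2 it was 0.45 ± 0.14 and passed (adjusted p = 0.0138, against 0.0138 to 0.279 over the 22 fits that left out 1 ENT pig). It did not pass in any of the 9 alternatives, of which 1 left out both matching libraries (0.35, adjusted p = 0.0608, against 0.0542 to 0.188). On SLE and MLE the values were 0.21 (adjusted p = 0.487) and 0.05 (adjusted p = 0.892).

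In the make-up of the ligands, TGFB1 took 81.3% ± 4.85 (SD, n = 60) of the summed counts per kilobase of the 3 genes, TGFB3 16.4% ± 4.35, and TGFB2 2.39% ± 0.789. The TGFB1 share averaged 78.7% ± 4.59 in MLE-sham and 84.4% ± 2.37 in MLE-BDL. On ENT it was 82.4% ± 3.6 in sham and 79.2% ± 8.33 in BDL pigs, and on SLE 81.3% ± 3.76 and 81.7% ± 2.99. TGFB1 was thus the main ligand transcript in each of the 60 pigs, the lowest share being 64% in an ENT-BDL pig. These shares were not tested.

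**Figure D2:**
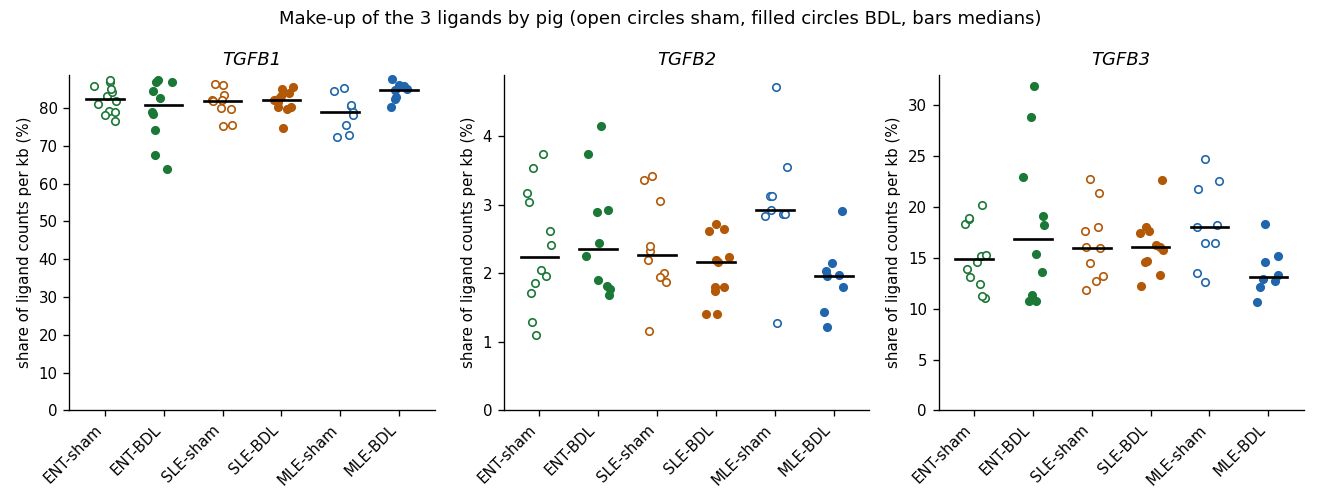
Share of TGFB1, TGFB2, and TGFB3 in their summed counts per kilobase (y axes, percent, from 0) by pig and group, with bars for medians. The TGFB1 share stays between 64% and 87.6% over all pigs, and the widest spread of the TGFB3 share, from 10.8% to 31.9%, is in ENT-BDL.

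LTBP1, which binds latent TGF-β to the matrix (gene ID 100627243, chromosome 3, 106300748 to 106724538, minus strand), did not pass the test on any diet. Its range was 43.8 to 95.6 CPM in ENT-sham (median 60.4) and 42.6 to 91.9 in ENT-BDL (median 81.2). In SLE pigs the range was 38.6 to 69.5 in sham (median 58.9) and 36.5 to 102 in BDL (median 72.2), and 7 of 11 SLE-BDL pigs lay above every SLE-sham pig. MLE-sham pigs ranged from 39.8 to 87.3 (median 62) and MLE-BDL pigs from 44.3 to 122 (median 80.6). On ENT and SLE the lowest BDL pig lay below every sham pig, and on MLE it lay among them. Log2 fold changes were 0.21 ± 0.14 (adjusted p = 0.331), 0.31 ± 0.15 (adjusted p = 0.247), and 0.35 ± 0.16 (adjusted p = 0.144). With counts scaled by library totals, the MLE value was 0.56 and passed (adjusted p = 0.0184, against 0.0184 to 0.209 over 9 alternatives), in a scaling that moved the median of all tested genes to 0.215.

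ITGB8 encodes the β8 subunit that pairs with αV and exposes TGF-β on its latent complex (gene ID 100037284, chromosome 9, 89342245 to 89450701, plus strand). It had the largest log2 fold change of the 8 tested genes on each diet. ENT-sham pigs ran from 1.19 to 20.9 CPM (median 2.75) and ENT-BDL pigs from 4.13 to 23.9 (median 7.98). Both highest values belong to the matching pair, and without it ENT-sham ended at 4.22 (mean 2.64 ± 0.843 SD, n = 11), below 8 of 9 remaining ENT-BDL pigs (mean 8.58 ± 3.9). The log2 fold change on ENT was 1.26 ± 0.28 (adjusted p = 0.00094), and without both libraries 1.69 ± 0.18 (adjusted p = 1.54e-10, against 1.54e-10 to 0.0515 over 9 alternatives). Without ENT-sham replicate 2 alone it was 1.93 (adjusted p = 4.53e-11), and without ENT-BDL replicate 1 alone 1.02 (adjusted p = 0.00691). In a fit of the ENT groups alone, with both libraries kept, the call was lost (1.26 ± 0.43, adjusted p = 0.0515). In SLE pigs, ITGB8 ran from 2.1 to 4.52 CPM in sham (median 3.02) and from 3.71 to 7.73 in BDL (median 4.96). All 11 SLE-BDL pigs lay above the SLE-sham median and 8 above every SLE-sham pig. The log2 fold change of 0.82 ± 0.30 nevertheless did not pass (adjusted p = 0.105). This fit shared 1 estimate of spread over all pigs, ENT-sham replicate 2 included, and without the matching pair the SLE value was 0.82 ± 0.18 and passed (adjusted p = 0.00249, against 0.00249 to 0.16 over 9 alternatives, of which 3 passed). MLE-sham pigs ran from 2.12 to 4.06 CPM (median 2.99) and MLE-BDL pigs from 3.76 to 7.57 (median 6.05). Here 7 of 8 MLE-BDL pigs lay above every MLE-sham pig. The log2 fold change was 0.94 ± 0.33 (adjusted p = 0.0458), a call lost in 14 of 17 fits that left out 1 MLE pig (adjusted p 0.0379 to 0.0873) and 0.93 ± 0.20 without the matching pair (adjusted p = 0.000438, against 0.000204 to 0.0737 over 9 alternatives).

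Between diets, ITGB8 was lower in SLE-BDL than in ENT-BDL livers. No SLE-BDL pig lay above the ENT-BDL median, and 1 of 11 did once the matching library was left out. The log2 difference was -0.89 ± 0.29 (adjusted p = 0.0223) and -0.65 ± 0.18 without the matching pair (adjusted p = 0.00586, against 0.00586 to 0.0929 over 9 alternatives). The call was lost without ENT-BDL replicate 1 (-0.65, adjusted p = 0.0989), without ENT-BDL replicate 4 (-0.79, adjusted p = 0.0512), and with the pigs' identifier number as a block (-0.55, adjusted p = 0.0929). No MLE-BDL pig lay above the ENT-BDL median, with or without that library. That difference was -0.80 ± 0.32 (adjusted p = 0.0704) and -0.57 ± 0.19 without the pair, which passed (adjusted p = 0.031, against 0.031 to 0.16). MLE-BDL and SLE-BDL differed by 0.09 (-0.53 to 0.71, adjusted p = 0.943). The response to BDL on SLE minus that on ENT was -0.44 on the log2 scale (-1.27 to 0.38, adjusted p = 0.687). Without the matching pair this difference was -0.87 ± 0.25 and passed (adjusted p = 0.0311, against 0.0311 to 0.756), while that between MLE and ENT did not (-0.76 ± 0.27, adjusted p = 0.255). Of the cholangiocyte markers, 7 of 12 were higher after BDL on ENT, 2 on SLE, and 8 on MLE, against 8.89%, 2.97%, and 7.85% of all tested genes. Their sum ran from 123 to 608 CPM in sham and 340 to 607 in BDL pigs on ENT, from 270 to 454 and 360 to 555 on SLE, and from 237 to 318 and 350 to 590 on MLE. ENT-sham replicate 2 had the highest summed cholangiocyte markers of its group (608 CPM, against a group median of 185). The part of these cells in the ITGB8 values was not tested.

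**Figure D3:**
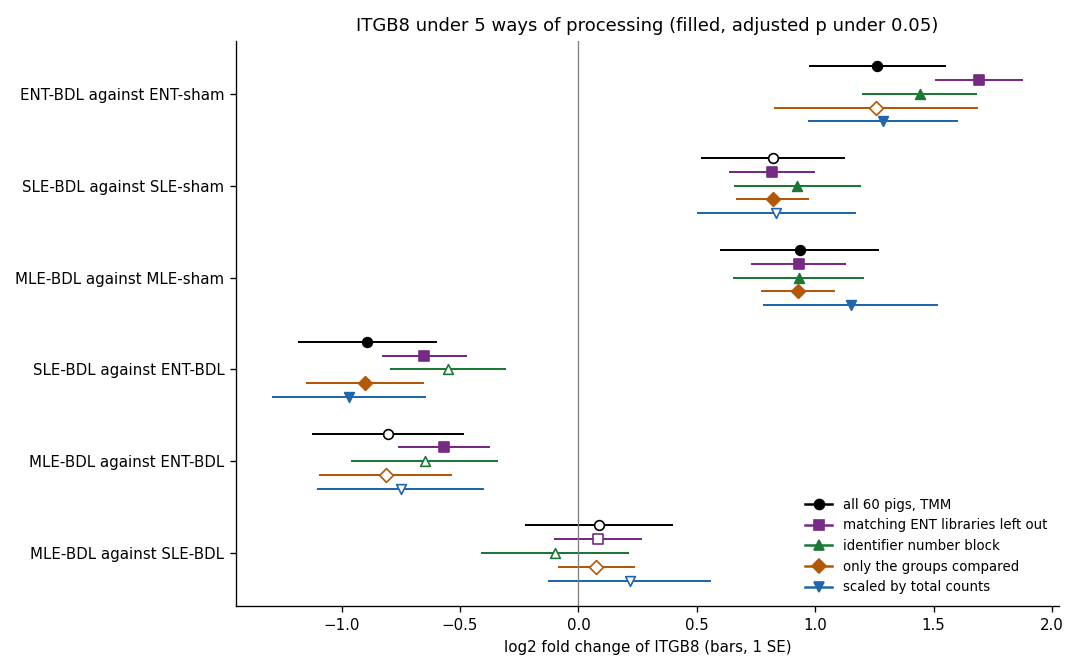
Log2 fold change of ITGB8 (x axis, bars of 1 SE) in 6 comparisons (y axis) under 5 ways of processing, with filled symbols for an adjusted p under 0.05. The direction is the same under all 5 except in MLE-BDL against SLE-BDL, where the value is -0.10 with the identifier number block, and leaving out the matching ENT libraries narrows the bars.

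ITGB6, the β6 subunit of an epithelial integrin that activates TGF-β (gene ID 100037276, chromosome 15, 67041516 to 67175409, minus strand), was near the limit of detection. It had 3 or fewer counts in 45 of 60 libraries and 0 counts in 18. More than 3 counts were found on ENT in 3 of 12 sham and 4 of 10 BDL pigs, on SLE in 1 of 10 sham and 5 of 11 BDL pigs, and on MLE in 1 of 9 sham and 1 of 8 BDL pigs. The highest counts in sham were 7 on ENT, 7 on SLE, and 5 on MLE, and in BDL 13, 14, and 16. The floor of 3 counts per library corresponds to 0.168 to 0.177 CPM by group when taken from library totals. Group medians ran from 0.0298 to 0.2 in the scaled CPM used elsewhere and from 0.5 to 3 counts, the highest in SLE-BDL. None lay above the floor in counts, so no fold change is given.

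Of the receptors, TGFBR1 rose after BDL on ENT and MLE. TGFBR1 is the kinase that phosphorylates the receptor SMADs (gene ID 396665, chromosome 1, 240842735 to 240918267, plus strand). ENT-sham pigs ran from 16.3 to 31.6 CPM (median 19.2) and ENT-BDL pigs from 18.8 to 38.9 (median 25.7). The highest ENT-sham pig was again replicate 2, and without the matching pair 7 of 9 ENT-BDL pigs lay above every ENT-sham pig. The log2 fold change was 0.41 ± 0.12 (adjusted p = 0.00859) and kept its call in all 9 alternatives (0.40 to 0.49). MLE-sham pigs ran from 16.8 to 27 CPM (median 20.3) and MLE-BDL pigs from 14.8 to 34.3 (median 28.5), with 6 of 8 MLE-BDL pigs above every MLE-sham pig and 1 below all of them. That change was 0.44 ± 0.13 (adjusted p = 0.0156), with the call kept in all 9 alternatives (0.42 to 0.65). In SLE pigs the range was 18.3 to 29.4 CPM in sham (median 21.2) and 16.2 to 34 in BDL (median 23). The SLE change of 0.14 (-0.10 to 0.37, adjusted p = 0.583) did not pass, and neither did its difference from the response on ENT (-0.27, -0.60 to 0.06, adjusted p = 0.467) or on MLE (MLE minus SLE 0.30, -0.05 to 0.65, adjusted p = 0.601). TGFBR2, the ligand-binding type II receptor (gene ID 100038019, chromosome 13, 16784370 to 16875828, plus strand), had the highest level of the 9 genes per kilobase and did not pass any test. Its group medians lay between 149 and 164 CPM. The log2 fold changes after BDL were 0.04 (-0.18 to 0.27) on ENT, -0.09 (-0.32 to 0.14) on SLE, and -0.14 (-0.40 to 0.12) on MLE. None of these intervals after BDL reached beyond -0.40 or 0.27.

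SMAD7, the feedback inhibitor that TGF-β itself induces (gene ID 100521305, chromosome 1, 98512800 to 98543924, minus strand), differed between diets in sham pigs. ENT-sham pigs ran from 12.8 to 23.3 CPM (median 17.6), SLE-sham pigs from 9.13 to 16.5 (median 14.6), and MLE-sham pigs from 12.7 to 17 (median 14.1). None of the 10 SLE-sham and 9 MLE-sham pigs lay above the ENT-sham median, although the ranges overlapped. SMAD7 was lower in SLE-sham than in ENT-sham (log2 fold change -0.35 ± 0.11, adjusted p = 0.0122) and lower in MLE-sham than in ENT-sham (-0.32 ± 0.11, adjusted p = 0.0357). The SLE call was lost with counts scaled by library totals (adjusted p = 0.0697, against 0.00852 to 0.0697 over 9 alternatives), and the MLE call was lost in 3 of 9 alternatives (adjusted p 0.0117 to 0.0522) and in 6 of 21 fits that left out 1 pig. After BDL the medians were 17.6 CPM on ENT (8.92 to 22.3), 16.5 on SLE (13.2 to 22.3), and 16.1 on MLE (14.7 to 20.1), with wide overlap. SLE-BDL differed from ENT-BDL by -0.02 (-0.24 to 0.20) and MLE-BDL by -0.03 (-0.27 to 0.20). SMAD7 did not pass the test of BDL against sham on ENT (-0.06, adjusted p = 0.754), SLE (0.27, adjusted p = 0.159), or MLE (0.22, adjusted p = 0.24), nor the test of a difference between the SLE and ENT responses (0.33, 0.02 to 0.64, adjusted p = 0.286).

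**Figure D4:**
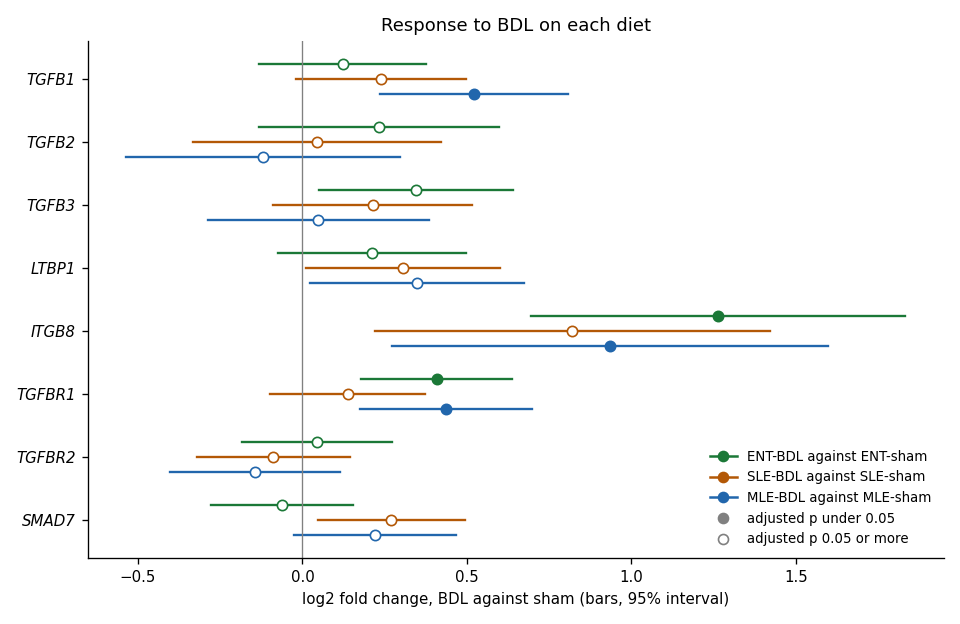
Log2 fold change of the 8 tested genes (y axis) after BDL on each diet (x axis, with 95% intervals), with filled circles for an adjusted p under 0.05. Values that passed are ITGB8 and TGFBR1 on ENT and ITGB8, TGFBR1, and TGFB1 on MLE, and no value passed on SLE.

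Counted together, 2 of 8 tested genes were higher after BDL on ENT, where 8.89% of all tested genes were called higher and 17.4% in either direction. Without the matching pair the ENT count was also 2, TGFBR1 and ITGB8, where 21% of all genes in that fit were called in either direction, and the other 6 genes did not pass on ENT in any of the 9 alternatives. On SLE the count was 0 of 8, against 2.97% of all genes called higher and 4.54% in either direction. On MLE 3 of 8 were higher, against 7.85% of all genes called higher and 14.4% in either direction. DESeq2 gave counts of 2, 0, and 3. At an unadjusted p under 0.05 with a positive log2 fold change, the counts were 3 of 8 on ENT (TGFB3, TGFBR1, and ITGB8, against 15.5% of all tested genes), 3 on SLE (SMAD7, LTBP1, and ITGB8, 10.2%), and 4 on MLE (TGFB1, TGFBR1, LTBP1, and ITGB8, 14.8%). A fold change above 2 was found for ITGB8 on ENT (3.39% of all genes were called above 2-fold there) and for no gene on SLE or MLE (1.49% and 3.78%). The median log2 fold change of the 8 genes was 0.22 on ENT, 0.23 on SLE, and 0.28 on MLE, against 0.006, 0.006, and 0.004 for all tested genes. With counts scaled by library totals, the median of all tested genes moved to 0.109 on ENT and 0.215 on MLE and the share of calls that were higher from 51% to 78.1% and from 54.4% to 91.3%, and 5 of the 8 genes were then higher on MLE, with SMAD7 and LTBP1 added. Between diets among BDL pigs, 1 of 8 was lower in SLE-BDL than in ENT-BDL (ITGB8, background 9.17% lower and 19.6% in either direction), 0 differed between MLE-BDL and ENT-BDL (16.8%), and 0 between MLE-BDL and SLE-BDL (0.907%). Among sham pigs 1 of 8 was lower on SLE than on ENT (SMAD7, 13.6% lower and 27.5% in either direction), 1 on MLE (SMAD7, 10.4% and 21.1%), and 0 differed between the PN diets (0.999%). Responses to BDL differed between diets for 0 of 8 genes, against 2.33% of all genes for SLE and ENT, 0.0617% for MLE and ENT, and 0.265% for MLE and SLE. Comparisons on 1 diet or 1 surgery share pigs, so they are not independent of each other.

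Over the 60 libraries, the genes whose log2 CPM ran most like that of each of the 8 tested genes were sought among 10788 genes with a mean log2 CPM of at least 2 and a symbol other than a LOC number. They were as follows, given as Pearson's r with r after group means were subtracted beside it. All libraries share the liver tissue and the scaling, and the values are descriptions. TGFB1 ran most like MSN, the cytoskeletal linker moesin (0.836, 0.816 within groups), TNFRSF1B, and FYN. TGFB2 ran most like PLXDC2 (0.622, 0.674) and TGFB3 most like PMEPA1, an inhibitor of receptor SMADs (0.689, 0.71). LTBP1 ran most like the basement membrane gene NID2 (0.764, 0.775), PXDN, and FBN1, the fibrillin that anchors LTBPs. ITGB8 ran most like BICC1 (0.871, 0.771), DCDC2 (0.865, 0.741), and PKHD1, the gene of fibrocystin (0.856, 0.725). Without the matching pair these 3 values were 0.858, 0.88, and 0.818. TGFBR1 ran most like SS18 (0.751, 0.681), TGFBR2 most like SLC44A2 (0.848, 0.865), PTPRB, a phosphatase of endothelium, and the scavenger receptor MRC1, and SMAD7 most like SOD3 (0.672, 0.679) and the co-receptor ENG. Among the 8 tested genes themselves the closest pair within groups was TGFBR2 with LTBP1 (0.669), and TGFB1 with ITGB8 was at -0.05.

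The other genes of the pathway were described with 5 lists. Of all tested genes, 8.89% on ENT, 2.97% on SLE, and 7.85% on MLE were called higher after BDL, and 8.53%, 1.57%, and 6.58% lower. The 35 calls on ENT in the 5 lists were all kept, in the same direction, without the matching pair. Of 24 established target genes of TGF-β, all tested, 11 rose and 1 fell after BDL on ENT, 8 rose and 0 fell on SLE, and 13 rose and 1 fell on MLE. The median log2 fold change of this list was 0.58, 0.59, and 0.80. Genes that rose on all 3 diets included CYR61 and CTGF, matricellular proteins, the proteoglycan VCAN, and TIMP1, an inhibitor of matrix metalloproteinases. TIMP1 ran from 2.44 to 30.5 CPM in ENT-sham (median 4.43) and from 7.33 to 64.3 in ENT-BDL (median 10.3), with overlap, and rose by 1.41 ± 0.46 (adjusted p = 0.0247). It ran from 4.31 to 8.68 CPM in MLE-sham (median 5.21) and from 18.9 to 135 in MLE-BDL (median 47.2), without overlap, and rose by 3.41 ± 0.55 (adjusted p = 1.7e-05). In SLE pigs it ran from 5.1 to 18.2 in sham (median 9.27) and from 8.16 to 147 in BDL (median 16.9), with overlap, and rose by 2.23 ± 0.48 (adjusted p = 0.00385). VCAN rose by 1.31 ± 0.30 on ENT, 1.43 ± 0.31 on SLE, and 1.91 ± 0.35 on MLE. VIM, an intermediate filament of mesenchymal cells, rose by 0.87 ± 0.15 on ENT and 0.93 ± 0.17 on MLE, and LOX, which crosslinks collagen, by 0.70 ± 0.22 on ENT and 1.25 ± 0.26 on MLE. Neither passed on SLE, where sham and BDL medians were 107 and 136 CPM for VIM and 9.18 and 13.9 for LOX. No difference between responses passed for VIM or LOX. The 1 gene that fell on ENT and on MLE was TGFBI (-0.36 and -0.53, singled out after its values were seen), a matrix protein named for its induction by TGF-β. Many genes of the list are also made by stellate cells and fibroblasts, and its members were taken from general knowledge of the pathway, so their number is no measure of TGF-β activity. The summed stellate cell and fibroblast markers ran from 313 to 533 CPM in sham and 308 to 537 in BDL pigs on ENT, from 283 to 438 and 320 to 710 on SLE, and from 338 to 478 and 345 to 706 on MLE, and their part in these counts was not tested.

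Of 18 genes for latency and activation, 7 rose and 1 fell on ENT, 2 rose and 1 fell on SLE, and 5 rose and 3 fell on MLE. THBS1, a matricellular activator of latent TGF-β, rose by 0.95 ± 0.25, 1.22 ± 0.26, and 1.43 ± 0.29. Its medians were 13, 19.7, and 19.3 CPM in sham and 29, 36.3, and 37 in BDL pigs of ENT, SLE, and MLE, and MLE-BDL pigs (25.5 to 102) did not overlap with MLE-sham pigs (14 to 22). MMP9, a protease that can cleave the latent complex, rose by 2.24 ± 0.50 on ENT, 1.94 ± 0.50 on SLE, and 2.60 ± 0.60 on MLE. Without the matching pair the ENT values were 1.19 ± 0.24 for THBS1 and 2.87 ± 0.51 for MMP9. ITGB3, another αV partner, rose by 1.64 ± 0.22 on ENT and 1.47 ± 0.25 on MLE, and its response was smaller on SLE than on ENT by the test of the difference itself (-1.10 ± 0.31, adjusted p = 0.0399). That difference was -1.36 ± 0.28 without the matching pair (adjusted p = 0.0014), and its call was lost in 22 of 43 fits that left out 1 pig (highest adjusted p = 0.0666). In sham pigs ITGB3 was already higher on SLE than on ENT (0.63 ± 0.22, adjusted p = 0.024), with medians of 22.8 and 14.7 CPM. Its medians after BDL were 30.7 CPM on SLE and 43 on ENT. LTBP2, which does not bind TGF-β as its relatives do, fell on SLE (-1.33 ± 0.27, adjusted p = 0.00163) and on MLE (-1.28 ± 0.30, adjusted p = 0.00166). On ENT it did not pass, with medians of 11.7 CPM in sham and 8.08 in BDL, and no difference between its responses passed. FURIN, which cleaves the TGF-β propeptide, was lower on ENT (-0.49 ± 0.09, adjusted p = 5.22e-05) and on MLE (-0.28 ± 0.10, adjusted p = 0.0481). Of 9 co-receptors and decoys, 1 rose on ENT (ASPN, 0.60 ± 0.21), 1 on SLE (the proteoglycan BGN, 0.59 ± 0.16), and 3 on MLE (BGN, ACVRL1, and DCN, 0.77, 0.62, and 1.00). With 1 pig left out, the ASPN call was lost in 9 of 22 fits, that of DCN in 11 of 17, and that of BGN on SLE in 1, without SLE-BDL replicate 2 (0.46, adjusted p = 0.0692). The ENT count was 3 of 9, with 2 higher and 1 lower, without the matching pair. Of 16 SMAD transducers and regulators, 2 rose and 1 fell on ENT, 1 rose on SLE, and 3 rose and 1 fell on MLE. PMEPA1, which sequesters receptor SMADs, rose on all 3 diets by 0.71 ± 0.15, 0.70 ± 0.16, and 0.59 ± 0.17. Without ENT-sham replicate 2, the numbers past the test on ENT in either direction were 16 target genes in place of 12, 9 latency genes in place of 8, and 4 SMAD genes in place of 3, while the share of all tested genes called on ENT in that fit was 22.5% in place of 17.4%. SMAD3, a transducer of the signal, rose on MLE by 0.38 ± 0.11 (adjusted p = 0.0171). The third gene called higher on MLE was the ubiquitin ligase gene NEDD4L (0.26), whose call was lost in 12 of 17 fits that left out 1 pig. Without MLE-BDL replicate 3 none of these 3 calls was kept, with SMAD3 at 0.30 (adjusted p = 0.076) and PMEPA1 at 0.47 (adjusted p = 0.0576).

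**Figure D5:**
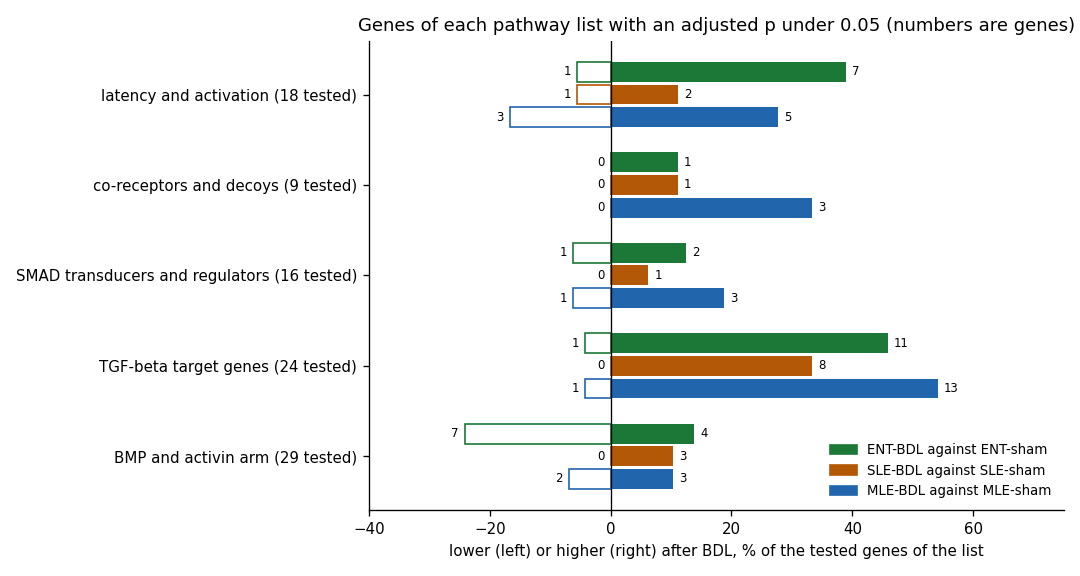
Genes of the 5 pathway lists that were higher (filled bars, right) or lower (open bars, left) after BDL on each diet, as a percentage of the tested genes of the list (x axis), with the number of genes beside each bar. The target genes have the largest counts, 11, 8, and 13 higher, and the BMP and activin arm has 7 lower genes on ENT and 0 on SLE.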

How the data were processed

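Poly(A) RNA of 60 pig livers was sequenced on an Illumina platform. The authors trimmed reads with fastp, aligned them to Sscrofa11.1 with HISAT2 2.0.5, predicted new genes with StringTie 1.3.3, and deposited featureCounts 1.5.0-p3 counts per gene without normalization (versions per the submitters' processing notes). Strand and multi-mapping settings are not given in the sources used here. Gene lengths were taken from the file, and counts cover a whole gene, so isoforms were not separated. The 24 features without a name (0.0084% to 0.0407% of counts) were left out of library sizes. Groups came from the labels, with the lipid codes IL and SL read as SLE and MLE.

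Counts were filtered with filterByExpr, scaled by TMM, and tested with edgeR 4.0.16 (estimateDisp, glmQLFit with robust=TRUE, glmQLFTest) in R 4.3.3, in 1 model of 6 groups. P values are two-sided and Benjamini-Hochberg adjusted over 16210 genes, and a gene passed at an adjusted p under 0.05 at any fold change. DESeq2 1.42.0, which the study used, was an alternative. CPM are counts scaled to a common TMM library size, and log2 CPM used a prior count of 2. Intervals are 95%. The floor was set at 3 counts and covers counting error only. The code was tested on simulated data. Tables were made with Python 3.11.15, numpy 2.4.6, pandas 2.3.3, and matplotlib 3.10.9.

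The genes and lists were chosen with earlier results of these data known. Besides the 9 genes, the text names up to 4 genes per list with the smallest adjusted p in each comparison of BDL with sham, up to 3 in other comparisons, and the 3 genes most alike in pattern to each gene. CCN1 and CCN2 were found as CYR61 and CTGF. The labels give each library as a separate pig, the matching ENT pair included. They carry 8 identifier numbers of unstated meaning, 4 of them among MLE pigs. Residual expression correlated at 0.133 on average in 177 pairs of pigs from different groups with the same number and at -0.0178 in 1318 other pairs. SLE-sham replicates 9 and 10 share a full identifier. As the 51st closest of 1770 pairs, at a chi-square of 34.2 per degree of freedom (median 87.1), they were kept as 2 pigs. For list genes, leaving out the matching pair or single pigs was chosen after seeing the data. One gene of the target list is counted but not reported here by name. No sequences are shown.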

Additional observations from a re-analysis of the deposited data

Results flagged for a closer look

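In 36 sets of 8 to 10 pigs, made of 1 gene in 1 group, 7 sets held a pig farther from its neighbor than expected from the range of the group by Dixon's criterion, where chance gives about 1 in 20. TGFBR1 was high in SLE-sham replicate 8 (29.4 CPM, next pig 24.2) and in MLE-sham replicate 6 (27.0 CPM, next pig 21.2), and low in MLE-BDL replicate 1 (14.8 CPM, next pig 25.3). TGFB2 was low in MLE-sham replicate 2 (2.12 CPM, next pig 3.25). ITGB6 was high in SLE-sham replicate 9 (0.407 CPM), MLE-sham replicate 5 (0.312 CPM), and MLE-BDL replicate 4 (0.836 CPM), values that rest on 7, 5, and 16 counts. ENT-sham and SLE-BDL, with more than 10 pigs, were not examined in this way.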

How the results depend on the processing

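The alternatives were followed for 46 log2 fold changes of single genes. These are all of BDL against sham, all of TGFB1 and ITGB8, and others with an unadjusted p under 0.05 or a call in any setting. In all 46, DESeq2 and RLE scaling gave the same direction and the same call as edgeR with TMM. Most changes of a call or a direction came from leaving out the matching ENT libraries, the identifier number block, and scaling by library totals, the last chosen after seeing the data. Genes past the test among the 8 are given with the percentage of all genes tested in the same fit that passed in either direction. They became, for BDL on ENT, 1 in the ENT groups alone (13.9%); on SLE, 1 in the SLE groups alone (2.83%), 1 with the identifier number block (4.15%), and 1 without the matching libraries (5.53%), ITGB8 each time; and on MLE, 5 with scaling by totals (31.4%). For SLE-BDL against ENT-BDL the count was 0 with the identifier number block (22.4%), and for MLE-BDL against ENT-BDL 1 without the matching libraries (17.1%). For SLE-sham against ENT-sham it was 2 with the identifier number block (27.1%, TGFBR1 added, 0.29, adjusted p = 0.046) and 0 with scaling by totals (25.5%). For MLE-sham against ENT-sham it was 0 without a filter (12.5%), 0 with scaling by totals (19%), and 0 with the replicate block (18.6%). For the SLE against ENT response it was 1 without the matching libraries (4.49%). Asking for a fold change above 2 left 1 gene for BDL on ENT and 0 in each other comparison with a call.

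The replicate numbers in the labels did not pair the pigs: residuals of 82 same-numbered pairs correlated between -0.231 and 0.381 (median -0.0112). The replicate block also ended the ITGB8 call on MLE (0.89, adjusted p = 0.0578), as did no filter (0.92, adjusted p = 0.0737) and at least 10 counts in every pig (0.92, adjusted p = 0.0506). It ended the SMAD7 call in MLE-sham (adjusted p = 0.0511) and no other.

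Among the values followed, scaling by totals turned the direction for SMAD7 on ENT (0.05), TGFBR2 on MLE (0.066), TGFB2 on MLE (0.096), and TGFB1 in SLE-BDL against ENT-BDL (-0.023). Among the same values, the identifier number block turned ITGB8 in MLE-BDL against SLE-BDL (-0.098) and TGFB1 in SLE-sham against ENT-sham (0.041). Leaving out the matching libraries turned ITGB8 in SLE-sham (0.224) and MLE-sham (0.193) against ENT-sham. Outside the values followed, it also turned TGFB2 in SLE-sham against ENT-sham (0.075) and TGFBR1 in the MLE against ENT response (-0.026). In SLE-BDL against ENT-BDL it turned TGFB3 (0.027) and SMAD7 (0.031), and in MLE-BDL against ENT-BDL SMAD7 (0.009). None of these values passed the test in either setting. With totals, the share of calls that were higher moved from 53.2% to 34.4% for SLE-BDL against ENT-BDL, 50.8% to 69.1% for MLE-BDL against ENT-BDL, 23.8% to 80.8% for MLE-BDL against SLE-BDL (median of all genes 0.139), 50.8% to 40.4% for MLE-sham against ENT-sham, and 37% to 17.1% for MLE-sham against SLE-sham.

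Of the lists, co-receptors past the test on ENT numbered 2 with the identifier number block, 3 without the matching libraries, and 3 without ENT-sham replicate 2, where 20.8%, 21%, and 22.5% of all genes passed. Latency genes for SLE-BDL against ENT-BDL numbered 4 and co-receptors for MLE-BDL against ENT-BDL 2 with the identifier number block (22.4% and 13.2% of all genes).

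Leaving out 1 pig at a time gave 2 to 3 genes past the test on ENT, 0 on SLE, 2 to 3 on MLE, 0 to 1 for SLE-BDL and 0 to 1 for MLE-BDL against ENT-BDL, 1 for SLE-sham and 0 to 1 for MLE-sham against ENT-sham, and 0 to 1 for the SLE against ENT response, the 1 being ITGB8 without ENT-sham replicate 2 (-1.11, adjusted p = 0.0109). MLE-BDL against ENT-BDL gained ITGB8 without ENT-BDL replicate 3 (adjusted p = 0.0469) or 5 (adjusted p = 0.0423). The SMAD7 call in MLE-sham was lost without ENT-sham replicate 3 or 11 or MLE-sham replicate 1, 5, 7, or 9. Log2 fold changes that turned, none past the test, ran from -0.116 to 0.017 (SMAD7, ENT), -0.03 to 0.115 (TGFB2, SLE), -0.035 to 0.116 (TGFB1, SLE-BDL against ENT-BDL), -0.538 to 0.224 and -0.569 to 0.193 (ITGB8, SLE-sham and MLE-sham against ENT-sham), and -0.136 to 0.022 (TGFB1) and -0.094 to 0.049 (ITGB8) in MLE-sham against SLE-sham. Only the values followed were searched for such turns. The cause of the shifts was not tested. Low counts limit TGFB2, ITGB8, and above all ITGB6.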

Other observations

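The related bone morphogenetic protein (BMP) and activin arm of the superfamily was also measured, with 29 of 32 listed genes tested. After BDL, 4 rose and 7 fell on ENT, 3 rose and 0 fell on SLE, and 3 rose and 2 fell on MLE, against 17.4%, 4.54%, and 14.4% of all tested genes called in either direction. The 3 genes on SLE were GDF15, FSTL3, and ID4, and without SLE-BDL replicate 9 the call of FSTL3 was kept while those of GDF15 (0.58 in place of 2.04, adjusted p = 0.225) and ID4 were lost. Without ENT-sham replicate 2 the ENT count in either direction was 14 in place of 11, and the share of all tested genes 22.5% in place of 17.4%. INHBA, the βA subunit of activin, ran from 17.8 to 40.8 CPM in ENT-sham (median 35.3) and from 14.2 to 22.6 in ENT-BDL (median 17.7), and was lower by a log2 fold change of -0.93 ± 0.12 (adjusted p = 1.83e-07). It was also lower on MLE (-0.67 ± 0.14, adjusted p = 0.000371). FST, the activin antagonist follistatin, was lower after BDL on ENT (-2.25 ± 0.38, adjusted p = 1.75e-05), with 4.61 to 33.9 CPM in sham and 2.26 to 5.89 in BDL. Both responses differed between SLE and ENT by the test of the difference (0.60 ± 0.17 for INHBA, adjusted p = 0.0436, and 2.36 ± 0.53 for FST, adjusted p = 0.00768). Without the matching pair these differences were 0.67 ± 0.16 and 2.50 ± 0.53 and passed, and the INHBA call was lost in 27 of 43 fits that left out 1 pig (highest adjusted p = 0.0805). The FST difference was 1.603 without SLE-BDL replicate 2 and passed in all 43 of these fits (highest adjusted p = 0.0349). In sham pigs FST was already lower on SLE than on ENT (-2.70 ± 0.39, adjusted p = 2.07e-07), with medians of 2.34 and 18.5 CPM. Its medians after BDL were 1.34 CPM on SLE and 3.23 on ENT. FSTL3, another activin-binding protein, rose on all 3 diets by 1.00 ± 0.20, 0.94 ± 0.21, and 0.82 ± 0.23.

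Diets were also compared in sham pigs. On SLE 3 genes were higher and 11 lower than on ENT, and on MLE 1 was higher and 8 lower, against 27.5% and 21.1% of all tested genes called in either direction. BMP6, a ligand known for its control of hepcidin, had medians of 13.1 CPM in ENT-sham, 4.89 in SLE-sham, and 5.02 in MLE-sham. Its log2 fold changes from ENT-sham were -1.41 ± 0.20 (adjusted p = 1.41e-07) and -1.46 ± 0.21 (adjusted p = 3.17e-07). Among BDL pigs it was lower by -1.15 ± 0.20 on SLE and -1.58 ± 0.22 on MLE. NEDD4L, a ubiquitin ligase of activated SMADs, was lower than on ENT in SLE-sham (-0.55 ± 0.08), MLE-sham (-0.65 ± 0.08), SLE-BDL (-0.53 ± 0.08), and MLE-BDL (-0.35 ± 0.09). GDF15, a stress-induced ligand, ran from 0.388 to 1.61 CPM in ENT-BDL (median 0.742), from 1.04 to 58.0 in SLE-BDL (median 3.29), and from 2.86 to 7.12 in MLE-BDL (median 5.03). It was higher than in ENT-BDL by 3.22 ± 0.47 on SLE and 2.53 ± 0.48 on MLE. The SLE value rests in part on SLE-BDL replicate 9 and was 1.77 without it, and the call was kept. MLE-sham and SLE-sham differed in 1 gene of the 5 lists, the matrix protein TNC (-1.26 ± 0.31 on MLE, adjusted p = 0.0239), as did MLE-BDL and SLE-BDL (TNC, -1.29 ± 0.31, adjusted p = 0.0234). Of all tested genes, 0.999% and 0.907% were called in these comparisons of the PN diets, so 1 list gene in each is no result about the lists. With 1 pig left out, the TNC calls were lost in 5 and 4 of 19 fits. Among calls of list genes between a PN diet and ENT, those lost without the matching pair were CTGF in SLE-sham and MLE-sham, ACVR1B in SLE-sham, and ACVR1 in MLE-BDL, which were singled out for this. These comparisons share pigs with each other.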
